A study of Mus musculus with 7 samples.

Results

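The miR-146 seed family was followed in CD4 T cells of DO11.10 mice, whose transgenic receptor binds a peptide of ovalbumin. Of the 1874 small RNA probes on the array, 6 had a target whose bases 2 to 8 (the seed) equalled those of probe UC1005119. The rule reads target sequences only, although the family was picked with earlier results of these data known. Signal was read from 7 single-colour Agilent arrays in 3 groups. The sOVA host group (3 arrays) held cells that the labels place in sOVA hosts immunized with sOVA, a name the labels do not spell out, and the WT host group (2 arrays) held cells from hosts that the titles call OVA immunized and the protocol wild-type Balb/c. In both, CD4+ cells pooled from lymph nodes and spleens of DO11 Rag2-/- mice were transferred into the host. At 24 hours after transfer the host received bone marrow-derived dendritic cells that carried Ova peptide and had been treated with LPS. The D011.10+ CD44 high cells were sorted 5 days after transfer. The naive group (2 arrays) held CD25- CD44 low D011.10+ cells of DO11.10 Rag2+/+ mice, which received no transfer. The source label calls every sample, naive ones included, activated in vivo, and the title of the series has the cells activated in vitro, so the naive state rests on the titles and the treatment protocol. In the contrasts with naive cells, activation cannot be told apart from the donors' Rag2 genotype or from the sort. Whether the 2 host groups were immunized alike cannot be settled from the labels, because titles and protocol differ. All animals were of the Balb/c strain, aged 6 to 8 weeks, and the sorted cells came from pooled mice. The labels do not say whether each array of a group had its own pool of mice. The p-values therefore describe the spread among these arrays, and that spread may be technical.

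A miRNA binds mRNAs mainly through its seed, so miRNAs that share one can share targets. miR-146a is induced by NF-kappaB, the transcription factor that antigen receptor and Toll-like receptor signals activate. It lowers the signalling proteins TRAF6 and IRAK1, which closes a negative feedback loop. In mouse T cells miR-146a limits responses to antigen and is known for its role in regulatory T cells, and miR-146b is made from a separate gene with the same seed.

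The 6 targets are given as DNA, 5′ to 3′, with the seed in capitals, because their differences at the 3′ end decide which RNA each probe was designed for.
UC1005119: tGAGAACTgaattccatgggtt
UC1005127: tGAGAACTgaattccataggct
UC1005123: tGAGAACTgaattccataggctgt
UC1005121: tGAGAACTgaattccaagggtg
UC1005122: tGAGAACTgaattccataggcg
UC1005118: tGAGAACTgaattccatagatgg

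All 6 shared their first 16 bases, although only the seed was used to choose them. Substitutions are counted from 1 at the 5′ end, with the base of UC1005119 first. UC1005127 differed from UC1005119 by G18A and T21C. UC1005123 carried the same pair of substitutions and was 2 bases longer. UC1005121 differed by T17A and T22G, UC1005122 by G18A, T21C and T22G, and UC1005118 by G18A, G20A and T22G. No other probe on the array had a target within 2 substitutions of a member. The files give no miRNA names, so targets were matched to the mouse miRNAs of RefSeq (build GRCm38.p6), among whose 1738 mature entries 2 have this seed. UC1005119 matched mmu-miR-146a-5p letter for letter and UC1005127 matched mmu-miR-146b-5p. UC1005123 lies within the Mir146b hairpin and extends past the mature end. The targets of UC1005121, UC1005122 and UC1005118 matched no mouse entry and are called by their probe names.

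The hairpins show where the mature RNAs sit, with both mature arms in capitals. Mir146 lies on the minus strand at chr11:43374397-43374461 and Mir146b on the plus strand at chr19:46342762-46342870 (GRCm38.p6).
Mir146: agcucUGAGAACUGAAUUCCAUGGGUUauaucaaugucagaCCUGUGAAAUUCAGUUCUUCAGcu
Mir146b: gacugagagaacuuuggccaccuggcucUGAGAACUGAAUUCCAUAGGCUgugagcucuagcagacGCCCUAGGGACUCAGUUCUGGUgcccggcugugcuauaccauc

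The mature 5p RNAs span chr11:43374435-43374456 and chr19:46342790-46342811. The 3p arm of Mir146b had a probe of its own, UC1005125, which was not well above background on any of the 7 arrays. No probe matched the 3p arm of Mir146.

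Between 309 and 467 of the 1874 probes were detected per array, and no spot was saturated. The 75th percentile of signal over the 253 probes detected on all arrays lay between 2729 and 11114 in the sOVA host group, was 9281 and 3591 in the WT host group, and 11868 and 15743 in the naive group. sOVA host replicate 3 and WT host replicate 2 were the dimmest arrays. All arrays lay on 1 slide, with sOVA host replicates 1 and 2, WT host replicate 1 and naive replicate 1 in row 1 and the other 3 arrays in row 2. Targets with the seeds of miR-142 and miR-181, which lymphocytes express, were detected for 5 to 7 of 8 in the sOVA host group, for 7 of 8 on both WT host arrays and for 7 to 8 of 8 in the naive group.

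UC1005119, UC1005121, UC1005123 and UC1005127 were detected on all 7 arrays, and UC1005122 on 6. UC1005118 was not well above background on any array, so no level or fold is given for it. Levels below are log2 signal minus the array's own 75th percentile, so they are relative to the other small RNAs of that array, and differences between groups are taken within a probe. Each probe had 7 spots per array, of which 6 or 7 were used. The SD between spots of 1 array was 0.050 to 0.10 log2 units for UC1005119 and 0.029 to 0.17 for UC1005127. For UC1005119 this was below the SD between arrays of each group. For UC1005127 in naive cells the spot SDs were 0.14 and 0.17, and the SD between arrays was 0.22. An array's value is a mean over its spots and varies less than single spots, so these SDs are not on the same scale.

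Cells from sOVA hosts had more miR-146a signal than naive cells. UC1005119 (mmu-miR-146a-5p) was at 1.70, 1.89 and -0.38 on sOVA host replicates 1, 2 and 3, against -2.54 and -3.49 on the naive arrays. Every sOVA host array was above both naive arrays, but replicate 3 was far below the other sOVA host arrays. The group averaged 1.07 ± 1.26 (SD, n = 3), against -3.01 ± 0.67 (SD, n = 2) in naive cells. The log2 change was 4.08 ± 0.75 (SE), a 16.9-fold difference with a 95% interval of 4.76 to 60.1 (adjusted p = 0.0175, limma). Among the 342 features tested this was rank 9 by change, where the median of all features was 0.11. Because RNA was pooled from sorted cells, more cells that express a miRNA and more of it per cell cannot be told apart.

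miR-146b signal was also higher in sOVA hosts. UC1005127 (mmu-miR-146b-5p) was at -3.09, -2.98 and -4.56 on the sOVA host arrays, against -5.97 and -6.28 on the naive arrays. The groups did not overlap, and replicate 3 was again the lowest of the sOVA host arrays. The log2 change was 2.58 ± 0.56 (SE), 5.98-fold with a 95% interval of 2.35 to 15.3 (adjusted p = 0.0238, limma). UC1005123, the longer form of the same target, was merged with UC1005127 for testing. It was at -3.69, -3.48 and -4.78 in sOVA hosts, against -6.06 and -6.24 in naive cells. With every probe tested on its own, its change was 2.17 (adjusted p = 0.0229, limma). All 5 detected members were called higher in that fit, where 17% of 401 probes were.

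The probes with no matching mouse entry moved the same way. UC1005121 was at -2.75, -2.69 and -5.01 on the sOVA host arrays, against -6.83 and -8.09 on the naive arrays, without overlap. Its log2 change was 3.98 ± 0.82 (SE), 15.8-fold (adjusted p = 0.0221, limma). Its naive levels were close to the lowest of any detected probe on those arrays, -6.96 and -8.27, which limits this fold. UC1005122 was at -4.42, -4.28 and -5.40, against -6.49 and -6.71 in naive cells, also without overlap. Its change was 1.90 ± 0.43 (SE), 3.74-fold (adjusted p = 0.0269, limma). It was not detected on sOVA host replicate 3.

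Thus 4 of the 4 members tested were called higher in sOVA hosts, where 15.5% of the 342 features were called higher. The median change of the 4 was 3.28, against 0.11 over all features. The 4 share 16 bases and are not independent, and whether miR-146a bound to the other probes was not tested. All 5 detected members also had groups that did not overlap, which held upward for 32.2% of features. With slide row as a block all 4 were called (22.8% of features were), UC1005119 with a change of 3.92 (adjusted p = 0.00918, limma). Without sOVA host replicate 3 all 4 were called too, where 24.9% of features were, with a change of 4.80 for UC1005119 (adjusted p = 0.00192, limma). Within row 1 the difference of UC1005119 was 4.33 and within row 2 it was 3.11; for UC1005127 these were 2.93 and 1.72.

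The calls rested on having both naive arrays and, for 3 of the 4 members, on the scaling. Without naive replicate 1 the change of UC1005119 was 4.56 (adjusted p = 0.0807, limma). Without naive replicate 2 it was 3.60 (adjusted p = 0.137, limma), and no member was called in either case, where 2.92% and 3.22% of features were called higher, so that few features of any kind kept a call. Without sOVA host replicate 1 or 2, UC1005119 alone of the 4 was called (adjusted p = 0.0483 and 0.0436, limma), where 8.48% and 10.8% of features were called higher. Scaled to the 75th percentile of all probes, UC1005119 and UC1005121 were called while UC1005122 and UC1005127 were not (adjusted p = 0.298 and 0.127, limma), and 7.02% of features were called higher. Scaled to the median, UC1005122 lost its call (adjusted p = 0.0547, limma), where 10.2% of features were called higher. With quantile normalization UC1005119 alone was called (adjusted p = 0.029, limma), where 9.94% of features were called higher. All 4 changes stayed positive under each scaling tried.

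On the dimmest array the higher level is one relative to the array. Before scaling, UC1005119 had signals of 31996, 41080 and 2094 in sOVA hosts, against 2047 and 1401 in naive cells. Unscaled signal on replicates 1 and 2 was thus far above the naive arrays, while on replicate 3 it was close to that of naive replicate 1. UC1005127 had 1161, 1412 and 116 in sOVA hosts, against 190 and 203 in naive cells, so that its unscaled signal on replicate 3 was below both naive arrays.

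In cells from WT hosts no member passed the test against naive cells, although all 5 detected members were higher on both WT host arrays. UC1005119 was at -0.88 and -0.22 on the WT host arrays, against -2.54 and -3.49 on the naive arrays, without overlap. The log2 change was 2.46 ± 0.82 (SE), 5.50-fold with a 95% interval of 1.37 to 22.1 (adjusted p = 0.0872, limma). UC1005127 was at -5.09 and -4.28 in WT hosts, against -5.97 and -6.28 in naive cells, without overlap. Its change was 1.44 ± 0.61 (SE; adjusted p = 0.147, limma), and UC1005123, tested as a probe of its own, had one of 1.34 (adjusted p = 0.114, limma), in a fit that called 13.7% of 401 probes higher.

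UC1005121 was at -5.70 and -4.87 on the WT host arrays, against -6.83 and -8.09 on the naive arrays. Its log2 change was 2.17 (adjusted p = 0.137, limma). UC1005122 was at -5.75 and -5.07, against -6.49 and -6.71 in naive cells, a change of 1.19 (adjusted p = 0.119, limma). Neither probe had groups that overlapped, and WT host replicate 2 was the higher of its pair for each of the 5 detected members.

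The count was therefore 0 of 4 members tested at adjusted p under 0.05, with 2 of them at an unadjusted p under 0.05, where limma called 12.9% of features higher. Groups that did not overlap, upward, were found for 44.4% of features. The median change of the 4 was 1.81, against 0.27 over all features. With slide row as a block UC1005119 was called (adjusted p = 0.0428, limma) and the other 3 were not, where 21.1% of features were called higher. Within rows 1 and 2 its difference was 1.65 and 3.27.

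The calls in WT hosts depended on which arrays entered the estimate of the spread. sOVA host replicate 3 does not enter the difference of WT host and naive cells, but it enters that estimate. Without it the change of UC1005119 was still 2.46 and its adjusted p was 0.00762 (limma), and all 4 members were called, where 28.7% of features were called higher. With only the WT host and naive arrays in the fit, all 4 were called as well, UC1005119 at an adjusted p of 0.0186 (limma), where 21.6% of features were called higher. Leaving out both dim arrays gave UC1005119 a difference of 2.13 (adjusted p = 0.0403, limma), with 3 of 4 members and 21.9% of features called higher. Unscaled, UC1005119 had signals of 5026 and 3082 in WT hosts, against 2047 and 1401 in naive cells, whereas UC1005127 had 273 and 185, against 190 and 203.

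The comparison of the hosts asked whether the family differed between cells activated in sOVA and in WT hosts, and no member passed. UC1005119 was at 1.70, 1.89 and -0.38 in sOVA hosts, against -0.88 and -0.22 in WT hosts. sOVA host replicates 1 and 2 were above both WT host arrays, and replicate 3 fell between them, so the groups overlapped. The log2 change was 1.62 with a 95% interval of -0.21 to 3.45 (adjusted p = 0.449, limma). The changes of UC1005121, UC1005122 and UC1005127 were 1.80, 0.71 and 1.14 (adjusted p = 0.449, 0.616 and 0.468, limma). The interval of UC1005127 ran from -0.21 to 2.49, so these data do not show that the hosts were alike. limma called 0% of features higher in this comparison, with 41 features at an unadjusted p under 0.05 in either direction. Of the 4 members, 0 were among those 41. sOVA host replicate 3 lay between the 2 WT host arrays for every detected member, and 5.56% of features had sOVA host arrays that were all above both WT host arrays.

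This result turned on 1 array. Without sOVA host replicate 3 the change of UC1005119 was 2.34 (adjusted p = 0.0245, limma), and UC1005121 and UC1005127 were also called at an adjusted p of 0.0317 each (limma). UC1005122 had a change of 1.06 (adjusted p = 0.0596, limma). In either direction, that fit called 3 of 4 members and 19% of features, of which 38 were higher and 27 lower. Replicates 1 and 2 alone averaged 1.79 ± 0.13 (SD, n = 2) for UC1005119, against -0.55 ± 0.47 (SD, n = 2) in WT hosts. The difference of UC1005119 was 2.68 within slide row 1, which holds sOVA host replicates 1 and 2, and -0.16 within row 2, which holds replicate 3. All 5 detected members had a positive difference in row 1 and a negative one in row 2, where it ran from -0.37 to -0.14.

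Taking both hosts as 1 activated group gave 5 arrays against 2. UC1005119 averaged 0.42 ± 1.28 (SD, n = 5) in activated cells and -3.01 ± 0.67 (SD, n = 2) in naive cells, and all 5 activated arrays were above both naive arrays, as for 30.4% of features. An exact permutation test on the absolute difference gave p = 0.0476 for UC1005119, UC1005122 and UC1005123, the smallest value that 21 splits allow, and p = 0.0952 for UC1005121 and UC1005127. Doubling the one-sided value instead gave p = 0.0952 for each of the 5 by the same exact test. These p-values are unadjusted.

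The members kept to 1 pattern over arrays and differed in its size. Over the 7 arrays the pairs of probes detected on all of them had Pearson r between 0.983 and 0.997. This is a description over 7 arrays that the probes share, together with 16 bases and the scaling. UC1005119 minus UC1005121 was nearly constant within arrays, at 4.45 to 4.63 in the sOVA host group, 4.65 to 4.82 in the WT host group and 4.30 to 4.60 in the naive group. UC1005119 minus UC1005127 was not: it was 4.18 to 4.86 in sOVA hosts and 4.06 to 4.20 in WT hosts, against 2.79 and 3.43 in naive cells. The miR-146a probe thus changed by 1.31 log2 units more than the miR-146b probe between activated and naive arrays (exact permutation test, p = 0.0476, unadjusted, the smallest possible). For UC1005119 against UC1005121 this difference of changes was 0.18 (exact permutation test, p = 0.286). Against UC1005122 and UC1005123 it was 1.81 and 1.59 (exact permutation test, p = 0.0476 for each, unadjusted, 4 such pairs tested in all). Doubling the one-sided value gave p = 0.0952 for these 3 pairs by the same exact test. UC1005122, UC1005123 and UC1005127, which carry G18A and T21C, had signals between 64.7 and 1412, against 1401 to 41080 for UC1005119. UC1005121, whose difference of changes was 0.18, had signals of 57.9 to 1725. Whether a compressed range at low signal enters these differences was not tested.

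The probes most like UC1005119 outside the family had the miR-155 seed. Among the 213 other features detected on all arrays, UC1005121 and UC1005127 ranked first and second by Pearson r, and the median r was 0.099. The third, UC1005156, matched mmu-miR-155-5p (r = 0.988 over 7 arrays), the miRNA known to promote T cell responses, and UC1005155, which has the miR-155 seed and no exact match, was the fourth (r = 0.985). UC1005156 was at 1.39, 1.81 and -0.95 in sOVA hosts and -0.77 and -0.57 in WT hosts, against -3.19 and -3.41 in naive cells. Like UC1005119 it was high on sOVA host replicates 1 and 2 and near the WT host arrays on replicate 3. The probes matching mmu-miR-425-5p, mmu-miR-24-3p and mmu-miR-191-5p followed with r of 0.962, 0.962 and 0.957, and smaller changes of 1.01, 1.12 and 0.88 in sOVA hosts against naive cells, none of which passed.

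miR-21 and miR-132, which are tied to T cell activation, rose in both hosts, and sOVA host replicate 3 stood less apart for miR-21. UC1004818, which matches mmu-miR-21a-5p, induced on T cell activation, was at 3.86, 3.87 and 3.36 in sOVA hosts and 4.34 and 4.12 in WT hosts, against 1.01 and 0.72 in naive cells. It was called in both comparisons with naive cells (adjusted p = 0.00233 in sOVA hosts and 0.0017 in WT hosts, limma). Its WT host arrays were above all sOVA host arrays, unlike those of UC1005119, but the hosts did not differ by the test (change -0.53, adjusted p = 0.542, limma). UC1005056, which matches mmu-miR-132-3p, was called higher in both hosts, by 1.71 in sOVA hosts and 2.48 in WT hosts (adjusted p = 0.0356 and 0.0149, limma). It was at -4.99, -5.41 and -4.21 in sOVA hosts, so that replicate 3 was the highest of these arrays, unlike for UC1005119. UC1005158, which matches mmu-miR-181a-5p, known to raise T cell receptor sensitivity, had a change of -1.64 in sOVA hosts (adjusted p = 0.0749, limma) and fell by 3.34 in WT hosts (adjusted p = 0.013, limma).

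By list, without the miR-146 seed, the NF-kappaB-linked seeds (miR-155, miR-21, miR-9, miR-132 and miR-147) gave 6 tested features, of which 5 were called higher in sOVA hosts and 4 in WT hosts, and 0 were lower. Over all features 15.5% were called higher in sOVA hosts and 12.9% in WT hosts, the shares against which this count and those of the next lists stand. The median change of all features was 0.11 and 0.27 in these comparisons. For the 6, the median change was 3.17 in sOVA hosts and 2.64 in WT hosts. Of the 6, the miR-155 seed features UC1005156 and UC1005155 were not called in WT hosts (adjusted p = 0.0872 and 0.103, limma), as with miR-146. The list of seeds raised in activated T cells had 15 of 17 features called higher in sOVA hosts and 14 of 17 in WT hosts. Its seeds were those of miR-155, miR-21, miR-182, miR-183, miR-96, miR-132, miR-221, miR-18, miR-210, miR-214 and miR-31. The list linked to regulatory T cells (miR-155, miR-21, miR-10, miR-31 and miR-182) had 5 of 5 higher in sOVA hosts and 3 of 5 in WT hosts. Several features within a list share a seed, among them those of miR-21 and miR-155, so these are not counts of separate seeds. All 3 lists hold the seeds of miR-155 and miR-21, and none had a feature called between the hosts. Every tested feature of the NF-kappaB-linked and regulatory T cell lists was also in the list for activated T cells. The 3 lists therefore do not give separate counts. The seeds of miR-9, miR-10 and miR-31 gave no tested feature.

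Lymphocyte markers and markers of other cells were read on the same arrays. The summed signal of the miR-142 and miR-181 seed targets was 206% to 647% of the 75th percentile in sOVA hosts and 313% to 425% in WT hosts, against 932% to 1080% in naive cells, with 1 of 7 tested targets called lower in sOVA hosts and 2 of 7 in WT hosts, where 5.56% and 5.85% of all features were called lower. Its part in the differences of the members was not tested. The myeloid miR-223 seed target, UC1005308, was at -6.60, -5.22 and -4.99 in sOVA hosts and -5.59 and -6.34 in WT hosts, against -3.04 and -2.80 in naive cells. Both naive arrays were above all host arrays. It was called lower in both hosts (adjusted p = 0.0221 and 0.0161, limma), although it was not detected on sOVA host replicate 1 and WT host replicate 2. The erythroid seeds of miR-451 and miR-144 had 1 of 2 targets detected on every array. Their summed signal was 5.91% to 192% of the 75th percentile in sOVA hosts and 10.1% to 29.0% in WT hosts, against 28.0% to 51.3% in naive cells. The highest of these, 192%, was on sOVA host replicate 3, where every detected member was lower than on the other sOVA host arrays, and its part in that result was not tested. Of 12 targets with the seeds of the epithelial miR-200a, miR-200b and miR-205, 0 to 4 were detected in sOVA hosts and 0 to 2 in WT hosts, against 6 in naive cells, with summed signals of 8.02% to 12.8%, 4.72% to 5.38% and 8.15% to 9.32% of the 75th percentile. Of the 6 of these tested, 2 were called lower in sOVA hosts and 4 in WT hosts, against the same shares of all features. The endothelial miR-126 seed target was detected on 0 host arrays and 1 naive array, and no miR-9 seed target was detected on any array.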

How the data were processed

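Total RNA was extracted with Trizol and labelled with Cy3 using an Exiqon kit, per the labels' protocols (250 ng, per the series' design text). The deposited scanner files hold intensity per spot on a linear scale. Per the file headers, Feature Extraction 9.5.1.1 subtracted background and detrended it spatially, with no normalization between arrays; the submitters' processing notes name version 10.6. Of 1776 rows of the value table of the series, 0 matched a member, so it was not used.

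Outlier-flagged and control spots were left out, and log2 signal was averaged over a probe's spots. A probe was detected where 50% of spots were well above background. The scale of an array was the 75th percentile of the 253 probes that were detected on every array. Probes whose targets share their start, the shorter within the longer, were merged (1753 features), and features detected on every array of a group were tested: 342, of which 214 on all arrays. limma 3.58.1 (R 4.3.3) was fitted to all 7 arrays, with Benjamini-Hochberg adjustment over the 342 and a threshold of 0.05. On simulated data 92.7% and 90.4% of changes of 3 log2 units were recovered for sOVA host and WT host against naive. The simulated arrays varied independently, with no deviation shared by slide row and no outlying array. The changes of the tested members in WT hosts were smaller, at 1.19 to 2.46, so these shares do not apply to them. All members are named. Beside them are the brightest tested feature of each of 7 seeds (miR-132, miR-150, miR-155, miR-181, miR-21, miR-223 and miR-9, of which miR-150 was not matched and miR-9 had no tested feature), the 5 features most correlated with UC1005119, the other arm, and probes within 2 bases of a member. The seeds came from RefSeq, and for miR-150, miR-147, miR-122, miR-1, miR-133, miR-124, miR-143 and miR-145 no target was used. Members and lists were chosen with earlier results of these data known. Alternatives changed scaling, background correction, filter, merging, spot summary, blocks and arrays. The number of arrays limits the precision.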

Additional observations from a re-analysis of the deposited data

How the results depend on the processing

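The changes of the 4 tested members were positive under each alternative run. For WT host against naive, UC1005119 was called with only these 2 groups in the fit (2.46, 4 members and 129 features called). It was also called with slide row as a block (2.46, 1 member, 109 features). The reported fit called 0 members and 64 features, and each of these fits tested 342 features. Without both dim arrays, which leaves WT host replicate 1 alone in its group, the change of UC1005119 was 2.13. With a replicate block the change of UC1005119 was 2.46 for WT host against naive, with 4 members and 139 features called. It was 2.34 for sOVA host against WT host, with 0 members and 27 features. Replicate 3 exists only in the sOVA host group, so this block gives the same changes as leaving that array out. Same-numbered arrays did not deviate together throughout (r from -0.63 to 0.50), so these values do not show that the numbers pair them. Arrays of different groups in the same slide row all correlated positively (0.35 to 0.66), and those in different rows negatively (-0.66 to -0.35). Deviations from the mean of a group of 2 arrays are mirror images, so each r has an equal and opposite one. The split by row is therefore partly fixed by arithmetic. Row 2 holds both dim arrays. Slide row is no term of the fit behind the reported values. Without both dim arrays, sOVA host against WT host gave 2.68 for UC1005119, with 3 members and 47 features called, against 0 and 0, and sOVA host against naive gave 151 features, against 72. For sOVA host against naive, the members called were 2 with all-probe scaling, 2 with no filter and 1 with quantile normalization, against 4. The features called higher were 24 of 342, 24 of 1753 and 34 of 342 in the same order, against 53 of 342. In either direction, sOVA host against naive had 34 of 214 features called when detection on all arrays was required. It had 25 of 1753 with no filter and 125 of 342 with slide row as a block, against 72 of 342. For WT host against naive the features called were 39 of 342 with all-probe scaling and 41 of 342 with normexp, against 64 of 342. They were 25 of 214 with detection on all arrays and 16 of 1753 with no filter. All-probe scaling moved the median of all features to -0.70 in sOVA hosts and -0.24 in WT hosts, and its calls in sOVA hosts were 24 higher and 44 lower, against 53 and 19.

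Leaving out 1 array at a time, the change of UC1005119 ran from 3.60 to 4.80 (sOVA host against naive), 1.98 to 2.94 (WT host against naive) and 1.21 to 2.34 (sOVA host against WT host). Members called ran from 0 to 4, 0 to 4 and 0 to 3, and features called from 12 to 126, 17 to 158 and 0 to 65 in the same order. The causes of these shifts were not tested. The value table of the series was not run as an alternative, since no row matched a member. Signal near background limits UC1005122, which was detected on 6 of 7 arrays, and also UC1005121. On naive replicates 1 and 2 UC1005121 was at -6.83 and -8.09, where the lowest levels of any detected probe were -6.96 and -8.27. On sOVA host replicate 3 it was at -5.01, against a lowest level of -5.20.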
